A study of Mus musculus with 48 samples.

Results

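The 8 genes described here build the red cell membrane or direct the making of red cells. They are Slc4a1, Epb42, Rhag and Kel, which encode membrane proteins, Gata1, Klf1 and Hemgn, which encode nuclear regulators, and Epor, the erythropoietin receptor. They were taken by symbol, not by a measured value, and mapped to the Ensembl identifiers of the deposited tables, where all 8 were found among 22055 genes. The mice were wild type and of the C57BL/6 strain, and all were sampled either as embryos on day 15.5 of gestation (E15.5) or as young adults 42 days after birth (P42). Liver, kidney, lung, heart, brain and retina were taken for RNA-seq and for ribosome profiling (Ribo-seq). Each of the 24 groups (6 tissues, 2 stages, 2 assays) had 2 biological replicates, 48 libraries in all, and the labels do not say whether a replicate was 1 animal or a pool. No group carried a transgene or a treatment.

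Red cells of the fetus are made mainly in the liver, where erythroid precursors lie among the hepatocytes. After birth this task passes to bone marrow and, in mice, spleen, neither of which was sampled. Gata1 and Klf1 bind GATA and CACC-box sequences in erythroid genes, and erythropoietin acting through Epor keeps the precursors alive. Band 3, the product of Slc4a1, is the anion exchanger of the red cell and ties the membrane to its skeleton through ankyrin and protein 4.2, the product of Epb42. A shorter form of band 3 is also known from acid-secreting intercalated cells of the kidney.

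RNA-seq measured polyadenylated message, and Ribo-seq measured the fragments (footprints) that ribosomes shield on it. The deposited values are TPM, a transcript abundance corrected for gene length, so message levels may be compared between genes. They are labelled as exon level, so footprint levels also depend on how much of a gene's exons is untranslated. Read totals were not analysed here, and how deeply each library was sequenced is unknown. The genes in the tables add up to 48.94% to 93.38% of the full TPM total by RNA-seq and to 23.14% to 61.13% by Ribo-seq. The lowest RNA-seq sum was that of replicate 2 of E15.5 kidney, against 81.72% in replicate 1 of that group. Marker lists of brain, retina, heart, kidney, liver and lung each had their highest summed level in the tissue so labelled, at both stages and in both assays.

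All 8 genes are protein coding, and none shares an exon with another gene in the GENCODE M21 annotation of GRCm38. Slc4a1 (ENSMUSG00000006574.15) lies at chr11:102348824-102366203 on the minus strand, Epb42 (ENSMUSG00000023216.13) at chr2:121017891-121037072 on the minus strand and Rhag (ENSMUSG00000023926.7) at chr17:40811126-40840754 on the plus strand. Kel (ENSMUSG00000029866.13) lies at chr6:41686330-41704339 and Gata1 (ENSMUSG00000031162.14) at chrX:7959260-7978071, both on the minus strand. Klf1 (ENSMUSG00000054191.8) lies at chr8:84901928-84905291 on the plus strand. Hemgn (ENSMUSG00000028332.13) lies at chr4:46393989-46413506 and Epor (ENSMUSG00000006235.6) at chr9:21958897-21963506, both on the minus strand.

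Since the genes moved together in liver, their promoters were searched for the letters that Gata1 and Klf1 are known to read. RefSeq promoter windows of GRCm38.p6, running from 250 bases before to 50 after each start, were matched by symbol for 7 of the 8 genes, all but Slc4a1. The upstream stretches of 5 of them are printed 5′ to 3′ on the strand of the gene, with matches in capitals to the GATA letters AGATAA and, differing in its first base, TGATAA, to the CACC-box letters CACACCC, or to the reverse complement of each. They show a GATA match close to the start in Kel, Rhag, Klf1 and Epor, and a CACC-box match in Klf1 and Gata1.
Kel, chr6:41704340-41704455, minus strand: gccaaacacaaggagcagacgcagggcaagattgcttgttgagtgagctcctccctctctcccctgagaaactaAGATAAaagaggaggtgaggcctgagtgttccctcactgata
Rhag, chr17:40811019-40811125, plus strand: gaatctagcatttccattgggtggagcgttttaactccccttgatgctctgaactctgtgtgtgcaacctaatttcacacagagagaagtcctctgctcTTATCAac
Klf1, chr8:84901852-84901927, plus strand: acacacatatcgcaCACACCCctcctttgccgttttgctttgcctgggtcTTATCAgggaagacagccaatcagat
Epor, chr9:21963577-21963706, minus strand: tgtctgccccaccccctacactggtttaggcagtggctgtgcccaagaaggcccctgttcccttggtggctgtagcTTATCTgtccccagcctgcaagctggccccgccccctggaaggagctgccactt
Gata1, chrX:7967911-7968040, minus strand: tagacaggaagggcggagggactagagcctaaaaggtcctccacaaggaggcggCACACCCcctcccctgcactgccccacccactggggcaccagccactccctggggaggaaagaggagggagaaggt
AGATAA or TGATAA was found on either strand in 6 of the 7 windows (all but Gata1), and in 18.6% of the 32851 promoters in the RefSeq table. In Kel AGATAA began 56 bases before the start, and TGATAA lay at -19, running past the end of the printed stretch and so not in capitals. In Rhag TGATAA on the opposite strand lay at -31, in Klf1 at -80, and in Epor AGATAA on the opposite strand lay at -54. Epb42 had AGATAA at -226 on the opposite strand, and Hemgn had TGATAA at -13. CACACCC was found in 2 of the 7 windows, Klf1 at -116 and Gata1 at -76, and in 7.95% of all promoters. The E-box CAGCTG was found in 3 of the 7 (Epb42, Hemgn and Epor) and in 16.3% of all promoters. These matches describe letters in a window and do not show binding. Offsets count from the RefSeq starts, which can differ from the ends of the gene spans given above. The RefSeq starts of Gata1 and Hemgn lie far inside those spans.

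The plot of every library shows the main pattern. All 8 genes were highest in E15.5 liver and next highest in E15.5 kidney, by RNA-seq and by Ribo-seq, and for each gene the replicates of these groups lay apart from those of the next group in the order. In liver all 8 fell between E15.5 and P42 to levels of 2.15 TPM or less, except for Klf1 message.

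**Figure D1:**
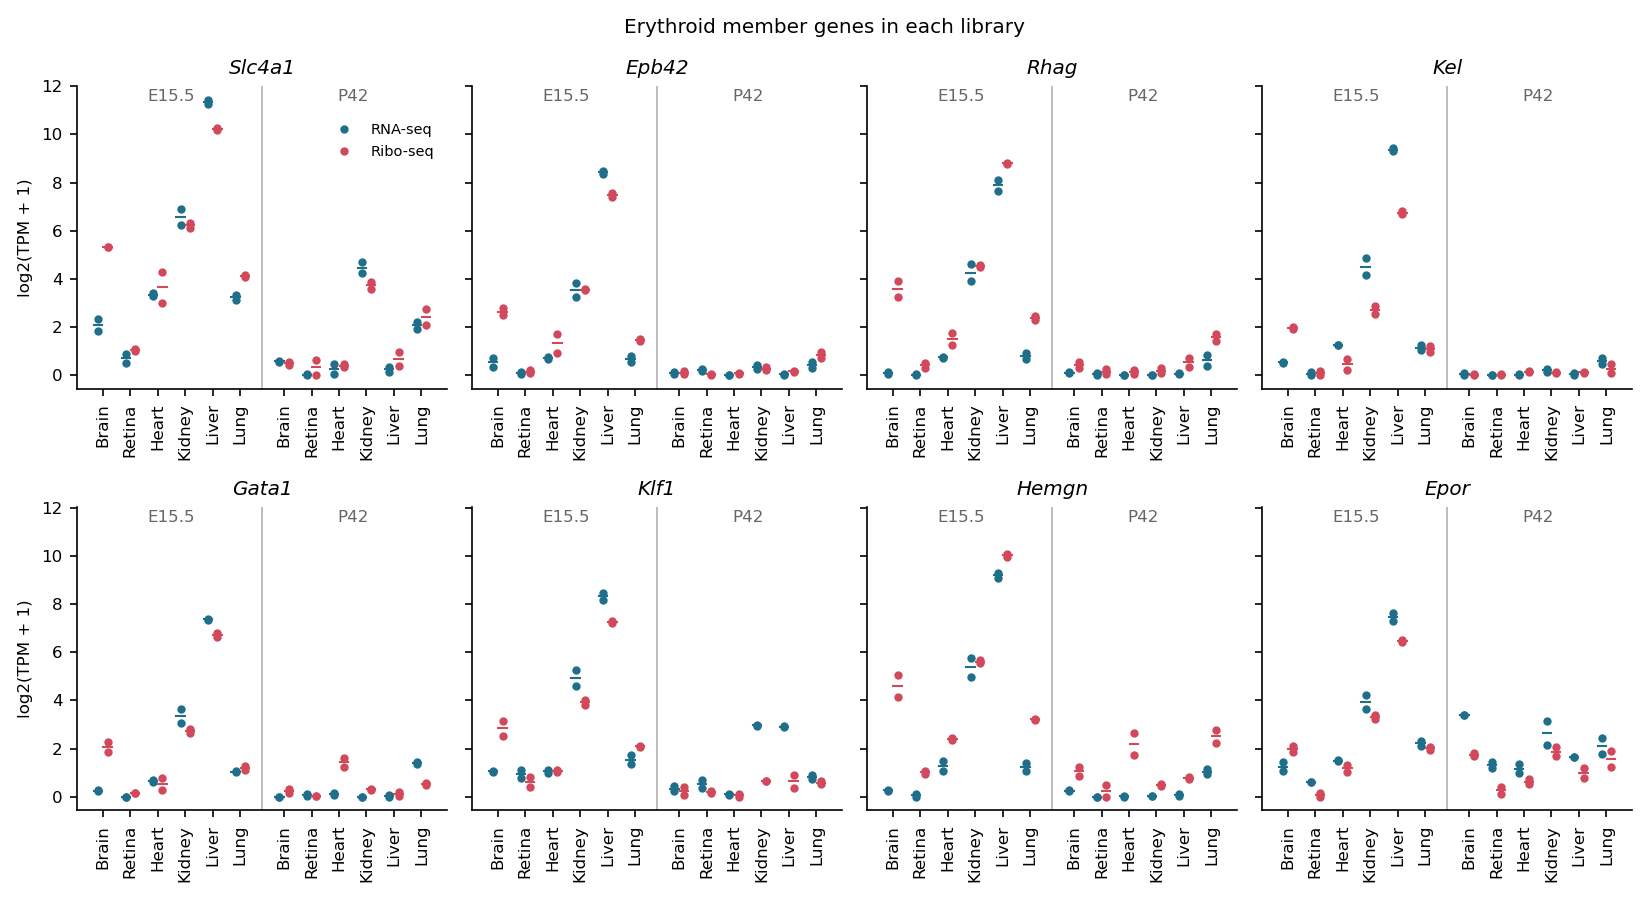
Each point is a library, on a log2(TPM + 1) axis, for the 8 genes in 6 tissues at E15.5 and P42 (blue RNA-seq, red Ribo-seq, dash the mean of 2 replicates). E15.5 liver holds the highest points of each gene, E15.5 kidney the next highest, and Slc4a1 in P42 kidney, Klf1 message in P42 kidney and liver and Epor message in P42 brain stand above the other P42 groups.

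Among the membrane proteins, Slc4a1 was the most abundant in E15.5 liver. Its message measured 2777 and 2487 TPM in the 2 replicates and its footprints 1148 and 1232 TPM. Slc4a1 made up 51.4% of the summed message of the 8 genes there, and 36% of their summed footprints. At P42 liver held 0.261 and 0.103 TPM of Slc4a1 message and 0.287 and 0.969 TPM of footprints, far from the fetal values. The change from E15.5 to P42, as a difference of log2(TPM + 1), was -11.12 by message (standard error, SE, 0.229, limma adjusted p = 3.79e-21) and -9.55 by footprint (SE 0.326, limma adjusted p = 3.55e-14).

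Kel, which encodes the Kell blood group endopeptidase, stood at 686 and 634.8 TPM by message in E15.5 liver but at only 101.6 and 110.8 TPM by footprint. At P42 both assays listed it at 0.11 TPM or less in liver. The message fell by 9.32 (SE 0.17, limma adjusted p = 5.48e-22) and the footprints fell by 6.62 (SE 0.166, limma adjusted p = 6.02e-16).

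Epb42 stood at 357.7 and 327.1 TPM by message and at 167.7 and 188.2 TPM by footprint in E15.5 liver. It fell by 8.39 in message and fell by 7.33 in footprints, to 0.12 TPM or less in each P42 liver library. Rhag encodes the Rh-associated glycoprotein, a channel of the ammonium transporter family that brings the Rh proteins to the membrane. Its message was lower than that of the other 3 membrane genes, 272.8 and 201.9 TPM, but its footprints were higher than those of Epb42 and Kel, 440.1 and 448.6 TPM. Rhag fell by 7.81 in message and fell by 8.26 in footprints.

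Among the regulators, Hemgn, a nuclear protein of blood progenitors and erythroid cells, was the most abundant. Its E15.5 liver message measured 629.8 and 540.0 TPM and its footprints 994.9 and 1097 TPM, so that its footprints came close to those of Slc4a1. Hemgn fell by 9.11 in message (SE 0.194, limma adjusted p = 6.6e-21) and fell by 9.26 in footprints (SE 0.293, limma adjusted p = 1.41e-14). Gata1, the zinc finger factor without which red cell precursors do not mature, stood at 160.3 and 167.7 TPM by message and at 97.6 and 111.1 TPM by footprint. At P42 Gata1 message was listed at 0.0387 and 0 TPM in liver, a fall of 7.34, and its footprints fell by 6.60.

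Klf1, which switches on adult beta-globin, measured 289.9 and 348.7 TPM by message and 149.4 and 157.8 TPM by footprint in E15.5 liver. Its P42 liver message was the only value of the 8 genes in that tissue above 2.15 TPM, at 6.54 and 6.49 TPM, while its footprints were 0.295 and 0.866 TPM. Klf1 changed by -5.41 in message (SE 0.197, limma adjusted p = 1.4e-16) and by -6.64 in footprints (SE 0.21, limma adjusted p = 1.44e-14). Epor was the least abundant of the 8 by footprint, at 84.3 and 88.8 TPM, with 157.3 and 198.7 TPM by message. It retained 2.09 and 2.15 TPM of message in P42 liver and fell by 5.83 in message and fell by 5.47 in footprints.

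Counted over the genes, 8 of 8 were lower at P42 in liver by message, where 37.2% of the 17171 genes tested were lower, and 8 of 8 by footprint, where 30.5% of 16715 genes were lower. Calls needed a limma adjusted p under 0.05 together with a log2 change of 1 or more in size. The median change of the 8 was -8.10 by message, against -0.57 for all genes, and -6.98 by footprint, against -0.41. With median-of-ratios scaling the median of all genes moved to -0.03 and 0.09, and 8 of 8 were still called in both assays. Bulk tissue cannot tell fewer cells of a type from less RNA per cell. Each stage has its own deposited table, and the 2 cannot be told apart. Variances were pooled over tissues, and where a gene is near 0 in most of them its SE and p can be too small.

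The fall in liver was larger than that elsewhere for all 8 genes. Against the mean change of the other 5 tissues, the liver change differed by -4.44 (Klf1) to -9.42 (Slc4a1) in message and by -4.88 (Klf1) to -7.19 (Hemgn) in footprints. All 8 were called in this test of the difference by each assay, against 18.8% of all genes by message and 21.2% by footprint. A gene near 0 in another tissue at E15.5 has little room to fall there. Rhag message, for example, had a mean of 0.068 TPM in E15.5 brain. The test therefore largely repeats the difference in E15.5 level between liver and the other tissues. The plot of stage changes sets the tissues side by side.

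**Figure D2:**
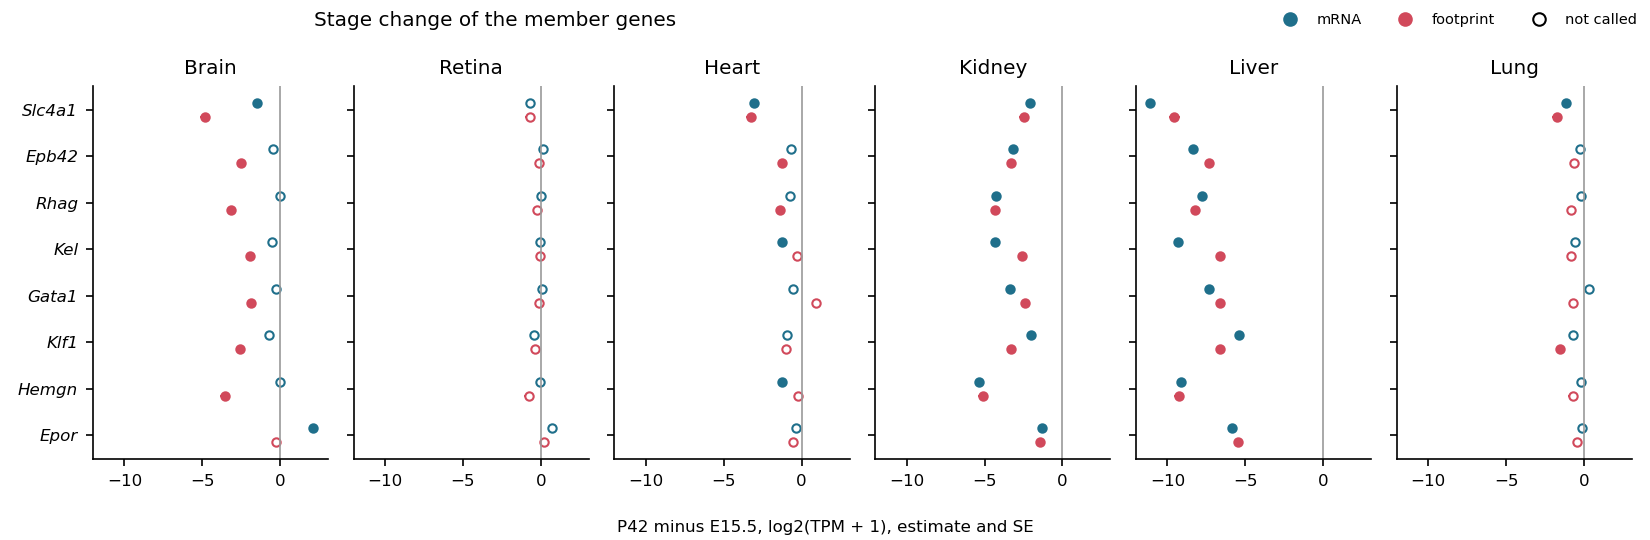
Each point is the change of a gene from E15.5 to P42 in log2(TPM + 1), blue for message and red for footprints, with bars of 1 SE that are mostly smaller than the point; open points were not called. In liver the points lie between -11.12 and -5.41, in kidney between -5.34 and -1.29, and in retina none was called.

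Other genes known from red cells and their precursors also fell in liver. Of 13 further red cell membrane and skeleton genes, 13 fell in each assay (median -6.84 by message and -5.65 by footprint), where 37.2% of all genes fell by message and 30.5% by footprint, with all-gene medians of -0.57 and -0.41. Among the largest falls by message were those of Rhd, the Rh polypeptide that Rhag carries (-8.99), and Ermap, an erythroid adhesion protein (-8.76). Tmod1, which caps actin filaments (-3.40), and Gypc, glycophorin C (-3.28), fell least. Of 15 transcription factors and cofactors of the erythroid and progenitor network, 15 fell by message (median -4.18) and 14 by footprint (median -3.16). E2f2, a cell cycle factor (-7.51), Nfe2, an activator of globin genes (-7.40), and Tal1, which joins Gata1 in a complex (-6.93), fell most, and the LIM cofactor Ldb1 (-2.18) and the progenitor factor Gata2 (-1.14) fell least. Not all of these genes are confined to such cells. At E15.5, Tmod1 message in heart was 334% of that in liver, and Ldb1 message in brain was 172%.

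The genes listed for erythropoietin receptor signalling, whether they pass the signal on or restrain it, changed less. Of 12, 9 fell and 1 rose by message (median -1.52), and 8 fell and 1 rose by footprint (median -1.35), against the same 37.2% and 30.5% of all genes that fell and the all-gene medians of -0.57 and -0.41. The kinase gene Pim1 (-4.14), the survival gene Bcl2l1 (-3.56) and the stem cell factor receptor gene Kit (-3.16) fell most by message. Cish, a feedback inhibitor of this pathway, rose by 1.05 (SE 0.222, limma adjusted p = 0.000221), where 10.3% of all genes rose by message and 7.2% by footprint, and the adaptor gene Sh2b3 differed by -0.53, short of the threshold. With median-of-ratios scaling the number that fell was 5 by message and 4 by footprint, and with a pseudocount of 4 TPM it was 5 by footprint. Several of these genes are also active in other cells of the liver.

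E15.5 liver exceeded each of the other 5 E15.5 tissues for 8 of 8 genes in both assays, which held for 6.26% of all genes by message and 6.22% by footprint. The differences ran from 3.37 to 10.66 by message and from 3.15 to 9.17 by footprint on the log2(TPM + 1) scale. E15.5 kidney came nearest. Slc4a1 message measured 120.0 and 73.5 TPM there, 4.79 below liver (SE 0.229, limma adjusted p = 3.55e-14), and its footprints 79.4 and 68.0 TPM.

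The other 7 genes were also present in E15.5 kidney. Hemgn message measured 53.4 and 30.4 TPM, Klf1 37.7 and 23.4, Kel 28.3 and 16.6, Rhag 23.5 and 13.9, and Epor 17.9 and 11.5 TPM. Epb42 measured 13.2 and 8.39 TPM and Gata1 11.6 and 7.22 TPM. Replicate 1 was higher for all 8 genes by message, and that replicate also had the larger sum of listed genes. The kidney footprints of the 2 replicates were closer, for example 49.5 and 45.4 TPM for Hemgn and 15.3 and 12.9 TPM for Klf1.

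Relative to liver, E15.5 kidney held 3.15% to 9.57% of the message of the 8 genes (median 6.45%) and 4.53% to 10.2% of their footprints (median 5.69%). Genes made by hepatocytes moved with them. The 7 hepatocyte markers found in the tables had a median of 4.36% of their liver message and 5.18% of their liver footprints in E15.5 kidney, and albumin (Alb) message measured 1889 and 1151 TPM there. The 7 globin and heme markers found had medians of 12.1% and 10.3%. The part of liver material or of circulating red cells in the kidney values was not tested.

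By message, E15.5 brain, heart and lung held little of the 8 genes, with medians of 0.12%, 0.309% and 0.321% of liver. Globin and heme markers had higher medians there, 16.9% in brain, 29.7% in heart and 19.4% in lung. Slc4a1 was again the most abundant, with 3.97 and 2.59 TPM in brain, 9.56 and 8.79 TPM in heart and 9.17 and 7.66 TPM in lung. In E15.5 retina no gene reached a mean of 1 TPM by message, and Gata1 was listed at 0 in both replicates.

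E15.5 brain looked different by footprint. Slc4a1 footprints measured 39.0 and 38.9 TPM in brain, Hemgn 16.8 and 32.3, Rhag 8.5 and 14, Klf1 7.93 and 4.76 and Epb42 4.65 and 5.88 TPM. Hemgn message in the same tissue was 0.22 and 0.19 TPM, and Rhag message 0.0944 and 0.0407 TPM. The 8 genes held 2.34% to 4.13% of their liver footprints in brain (median 3.02%).

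Hepatocyte markers behaved alike in brain, with a median of 0.00192% of liver by message but 2.51% by footprint. Leaving aside Ttr, which the choroid plexus also makes (56.1% and 44.1%), Alb stood at 0.00126% by message and at 2.51% by footprint, and Apob at 0.00838% and 2.3%. In lung the footprint median was 1.16% for the 8 genes and 0.995% for hepatocyte markers, against 0.321% and 0.0972% by message. In retina it was 0.0817% and 0.0839%. In heart the 2 sets differed more, with footprint medians of 0.566% for the 8 genes and 0.242% for hepatocyte markers, against 0.309% and 0.0563% by message. The part of liver footprints in the Ribo-seq values of the other E15.5 tissues was not tested, and the plot of percentages shows both sets.

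**Figure D3:**
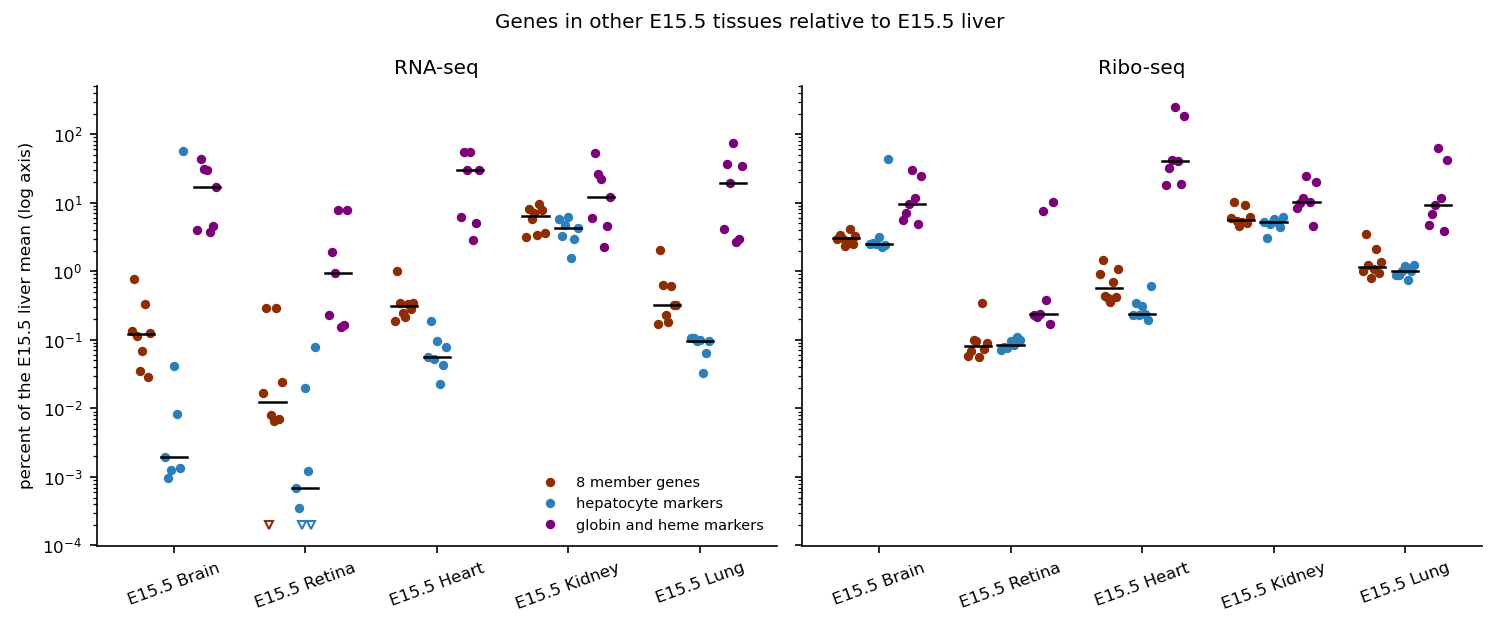
Mean level of each gene in 5 other E15.5 tissues as a percent of its E15.5 liver mean, on a log axis (brown the 8 genes, blue hepatocyte markers, purple globin and heme markers, line the median, open triangles genes listed at 0). By message the brown points in brain lie above most blue ones (medians 0.12% and 0.00192%), while by footprint both sit near the same level (medians 3.02% and 2.51%).

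In heart the footprints differed between replicates. Slc4a1 measured 18.7 and 6.92 TPM in the E15.5 heart Ribo-seq libraries, and the globin and heme markers summed to between 2939 and 18430 TPM in the same 2 libraries. Epb42 (2.30 and 0.903 TPM), Rhag (2.35 and 1.40), Kel (0.598 and 0.156), Gata1 (0.707 and 0.203) and Epor (1.47 and 1.06) were also higher in replicate 1. Hemgn did not follow, at 4.09 and 4.39 TPM, and Klf1 was nearly even, at 1.13 and 1.01 TPM. Slc4a1 message in heart was even, at 9.56 and 8.79 TPM.

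Between the stages, kidney was the only tissue besides liver where 8 of 8 genes fell in both assays, against 37.4% of all genes lower by message and 32.2% by footprint. The E15.5 kidney values are those beside which hepatocyte markers are given above, and the part of liver material in them was not tested. Hemgn fell most, by 5.34 in message (SE 0.194, limma adjusted p = 2.36e-16) and fell by 5.10 in footprints, and at P42 its kidney message was 0.0189 and 0.0196 TPM. The message of Kel changed by -4.31, Rhag by -4.25, Gata1 by -3.35, Epb42 by -3.19, Slc4a1 by -2.11 and Klf1 by -1.99. Epor fell least, by 1.29 (SE 0.263, limma adjusted p = 0.000135). That call did not hold with a pseudocount of 4 TPM (-0.97), with median-of-ratios scaling (-0.45), in a fit of kidney alone, where the difference itself was again -1.29, or without the first RNA-seq replicate of E15.5 kidney (-0.99) or of P42 kidney (-0.80). The Epor footprints fell by 1.44, and that call did not hold with a pseudocount of 4 TPM (-0.95) or with median-of-ratios scaling (-0.62), so that 7 of 8 genes were called in kidney under these settings in each assay.

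The kidney change was compared with the mean change in brain, retina, heart and lung. By message 7 of 8 genes fell further in kidney, where 14.7% of all genes did, and by footprint 7 of 8, where 21.1% did. Slc4a1 was the exception, with differences of -0.50 by message and 0.14 by footprint. Hemgn had the largest, -4.96 and -3.79. The Klf1 difference by message, -1.28, was not called with a pseudocount of 0.25 TPM (-0.75), with median-of-ratios scaling (-0.80) or without the first RNA-seq replicate of E15.5 kidney (-0.94). With a pseudocount of 4 TPM, 4 of the 8 were called by footprint. Here too, genes near 0 at E15.5 in the tissues compared had little room to fall, so the test partly repeats the E15.5 difference. Hepatocyte markers in E15.5 kidney are given above, and the part of liver material in its values was not tested.

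In brain 1 gene, Slc4a1, was lower at P42 by message (-1.51), where 30.7% of all genes were, and its call was lost with a pseudocount of 4 TPM (-0.69) and with median-of-ratios scaling (-0.95). By footprint 7 of 8 were lower in brain, all but Epor, against 14.4% of all genes, with Gata1 and Kel no longer called with a pseudocount of 4 TPM (-0.79 each). These are the E15.5 brain footprints beside which hepatocyte markers are given above. In heart 3 of 8 were lower by message (Slc4a1 -3.08, Kel -1.24 and Hemgn -1.26), where 57.1% of all genes were, and 3 of 8 by footprint (Slc4a1 -3.26, Epb42 -1.26 and Rhag -1.38), where 38.3% were. Those shares of the 8 are no larger than the background. With a pseudocount of 4 TPM only Slc4a1 was called in heart in either assay, and without replicate 1 of the E15.5 heart Ribo-seq group the Epb42 difference was -0.86, short of the threshold.

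In lung Slc4a1 was lower at P42 by message (-1.15), 1 of 8 against 45.4% of all genes, but not with a pseudocount of 4 TPM (-0.78) or with median-of-ratios scaling (-0.05). By footprint 2 of 8 were lower there, Slc4a1 (-1.72) and Klf1 (-1.53), against 18.5% of all genes, and Klf1 was not called with a pseudocount of 4 TPM (-0.70). In retina no gene was called lower by limma in either assay, where 20.4% of all genes were by message and 11.9% by footprint. At an unadjusted p below 0.05, 3 genes differed between the stages in retina by message (Slc4a1, Klf1 and Epor) and 2 by footprint (Slc4a1 and Hemgn).

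At P42 most of the 8 genes were near 0, and by message 3 stood out, as the plot of P42 levels shows. Slc4a1 was higher in P42 kidney than in every other P42 tissue by both assays, the only gene of the 8 to be so, where 4.18% of all genes were by message and 3.52% by footprint. Its kidney message measured 17.9 and 24.7 TPM and its footprints 11.1 and 13.6 TPM. Lung came next with 2.82 and 3.67 TPM by message and 3.2 and 5.74 TPM by footprint, and the other 4 tissues were below 1 TPM in every library.

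Against lung, Slc4a1 in P42 kidney was higher by 2.38 in message (SE 0.229, limma adjusted p = 4.09e-09) and by 1.32 in footprints (SE 0.326, limma adjusted p = 0.00212). The footprint difference fell short of the threshold with a pseudocount of 4 TPM (0.96) and without replicate 1 of the P42 lung Ribo-seq group (0.98). Against the 4 remaining tissues the differences ran from 3.89 to 4.44 by message and from 3.06 to 3.40 by footprint.

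Markers of kidney intercalated cells were high in the same P42 kidney libraries. The 8 markers listed, among them the proton pump subunit gene Atp6v1b1 and the factor Foxi1, summed to 427.3 to 458.1 TPM by message and 165.4 to 171.7 TPM by footprint. All 8 reached a mean of 1 TPM by message, and their sum in E15.5 kidney was 29.15 to 48.03 TPM. Globin and heme markers summed to 490.3 to 867.6 TPM in P42 kidney and to 6596 to 7087 TPM in P42 lung, where Slc4a1 was lower, and Hbb-y and Hba-x were listed at 0 in P42 kidney. Intercalated cell markers were next highest in P42 lung, the tissue next to kidney for Slc4a1, at 32.78 to 60.87 TPM by message with 2 of 8 at a mean of 1 TPM, and at 61.34 to 67.74 TPM by footprint with 3 of 8. Rhag, the partner of the Rh proteins, was listed at 0 in both P42 kidney RNA-seq libraries, as was Gata1. Their footprints there were 0.068 and 0.21 TPM for Rhag and 0.23 and 0.26 TPM for Gata1. Klf1 message in P42 kidney measured 6.86 and 6.67 TPM and Epor 3.46 and 7.80 TPM. Epb42 message stood at 0.21 and 0.33 TPM, Kel at 0.21 and 0.089 TPM and Hemgn at 0.0189 and 0.0196 TPM. Gene-level TPM do not separate the red cell and kidney forms of Slc4a1, and the part of either cell type in its P42 values was not tested.

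**Figure D4:**
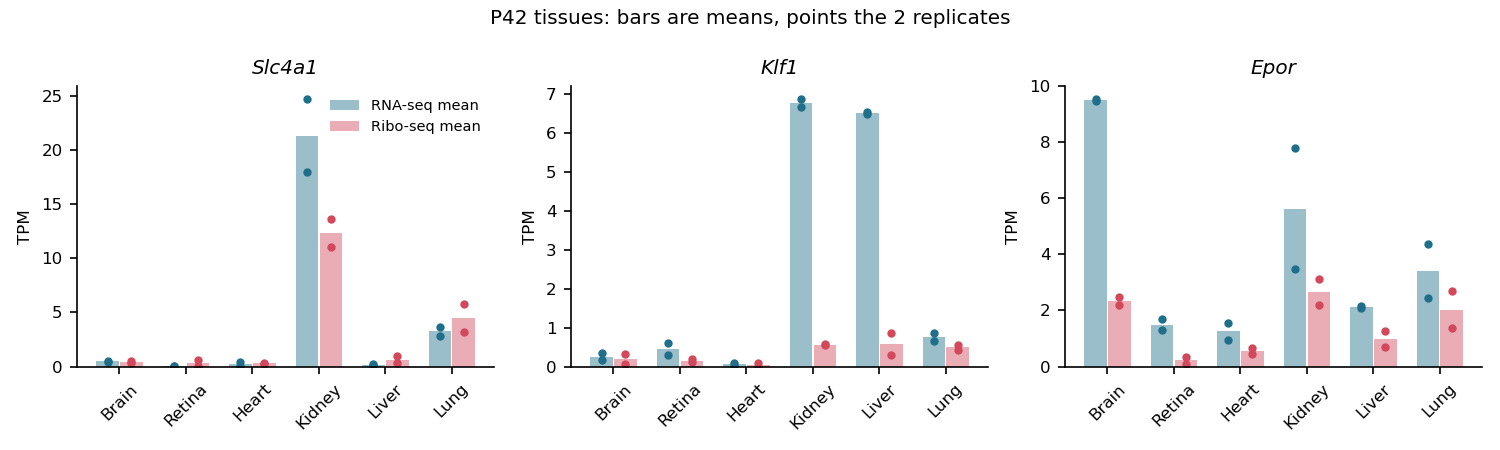
TPM of Slc4a1, Klf1 and Epor in the 6 P42 tissues, with bars from 0 for the mean of 2 replicates and points for the replicates (blue RNA-seq, red Ribo-seq). Slc4a1 peaks in kidney in both assays, Klf1 message is near 6.5 TPM in kidney and liver with footprints below 1 TPM, and Epor message is highest in brain.

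Klf1 was unlike the other regulators at P42. Its message measured 6.86 and 6.67 TPM in kidney and 6.54 and 6.49 TPM in liver, while brain, retina, heart and lung held 0.862 TPM or less in each library. P42 kidney exceeded those 4 tissues by 2.15 to 2.87, and the difference between kidney and liver was 0.05 (SE 0.197), short of the threshold. Klf1 footprints in the same tissues were 0.571 and 0.547 TPM and 0.295 and 0.866 TPM, close to the 0.424 and 0.559 TPM of P42 lung.

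A neighbour of Klf1 on the opposite strand, Gcdh, an enzyme of lysine breakdown, lies 8007 bases away. Gcdh message had a mean of 295 TPM in P42 kidney and 365 TPM in P42 liver, against 8.74 to 22.9 TPM in the other P42 tissues. The same 2 tissues held the most Klf1 message at P42. Dnase2a, a nearer neighbour on the strand of Klf1 (3269 bases away), had 5.39 TPM in P42 kidney, 8.7 TPM in liver and 27.3 TPM in brain. At E15.5 Gcdh message was also highest in liver, at 71.2 TPM, and next highest in kidney, at 34.6 TPM, with 17.4 to 31.4 TPM in the other tissues. The part of Gcdh transcripts in the Klf1 values was not tested, and whether the authors counted reads by strand is not given in the sources used here.

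Epor moved the other way in brain. Its message went from 1.11 and 1.67 TPM at E15.5 to 9.46 and 9.53 TPM at P42, a rise of 2.14 (SE 0.263, limma adjusted p = 2.38e-07), where 10.1% of all genes rose. The rise was called under every alternative tried, at 1.33 to 2.59. Its footprints showed no rise, with 2.63 and 3.30 TPM at E15.5 and 2.19 and 2.47 TPM at P42, a difference of -0.25. The E15.5 brain footprints of Epor were 3.43% of those in liver, where hepatocyte markers had a median of 2.51%. The part of liver footprints in them was not tested, so a rise in footprints from brain itself could be hidden. Epor also has neighbours on the opposite strand with message in P42 brain. Plppr2, 9990 bases away, had a mean of 185 TPM in P42 brain, 2.53 TPM in kidney and 4.61 TPM in liver, and Swsap1, 633 bases away, had 20.1, 12.8 and 5.18 TPM. Rgl3, 5205 bases away on the strand of Epor, had 1.71 TPM in P42 brain, 28.1 TPM in kidney and 11.7 TPM in liver. The part of transcripts of these neighbours in the Epor values was not tested. P42 kidney held 3.46 and 7.80 TPM of Epor message and P42 lung 4.38 and 2.46 TPM, and these replicates overlapped.

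Gata1 and Hemgn had low P42 values in lung and heart. Gata1 message was 1.68 and 1.54 TPM in P42 lung and was listed at 0 in both P42 kidney libraries. Hemgn message was 0.906 and 1.19 TPM in P42 lung, and its footprints were 3.71 and 5.88 TPM. Of the 8 genes, 2 (Gata1 and Hemgn) were lower in P42 kidney than in lung by message, where 19% of all genes were, and 2 (Rhag and Hemgn) by footprint, where 23.7% were. These shares of the 8 are close to the background, and with a pseudocount of 4 TPM none of the 4 differences was called (-0.33 to -0.99). The Hemgn difference in message was also short of the threshold with listed genes rescaled to an equal sum (-0.96) and without replicate 2 of the P42 lung RNA-seq group (-0.90). Megakaryocytes and mast cells are also known to use Gata1. Megakaryocyte markers summed to 147.6 to 166.3 TPM in P42 lung and to 6.5 to 8.79 TPM in P42 kidney, by message. Their sum was highest in P42 brain, at 632.3 to 651.3 TPM with 4 of 8 at a mean of 1 TPM. Gata1 message was listed at 0 there in both replicates. Such a sum can rest on few genes. In E15.5 brain Gp1bb, of this list, stood at 3010% of its liver message, where the list had a median of 2.88%. In P42 heart Gata1 footprints were 1.38 and 2.03 TPM and Hemgn footprints 2.28 and 5.23 TPM, with message at 0.104 TPM or less. Mast cell markers summed to 11.93 to 11.95 TPM by footprint in P42 heart, with 4 of 7 at a mean of 1 TPM. In E15.5 heart they summed to more, 24.4 to 25.28 TPM, while Gata1 footprints were lower, 0.707 and 0.203 TPM. The part of these cells in the Gata1 values was not tested.

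The genes differed in how many footprints they had for their message, as the plot of ratios shows. In E15.5 liver the ratio of mean footprint TPM to mean message TPM was 1.87 for Rhag and 1.79 for Hemgn, above 96.5% and 95.9% of the 9892 genes with 5 TPM of message. It was 0.636 for Gata1, 0.52 for Epb42, 0.486 for Epor, 0.481 for Klf1 and 0.452 for Slc4a1, near the median of 0.547. Kel had 0.161, above 7.61% of genes. In E15.5 kidney Rhag (1.19) and Hemgn (1.13) were again the highest and Kel (0.249) the lowest. These ratios are descriptions, since the 2 assays were normalized separately. The values are also at exon level, while footprints lie mainly on the coding part. A gene's ratio, and its place among the genes, therefore also depends on how much of its exons is untranslated.

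**Figure D5:**
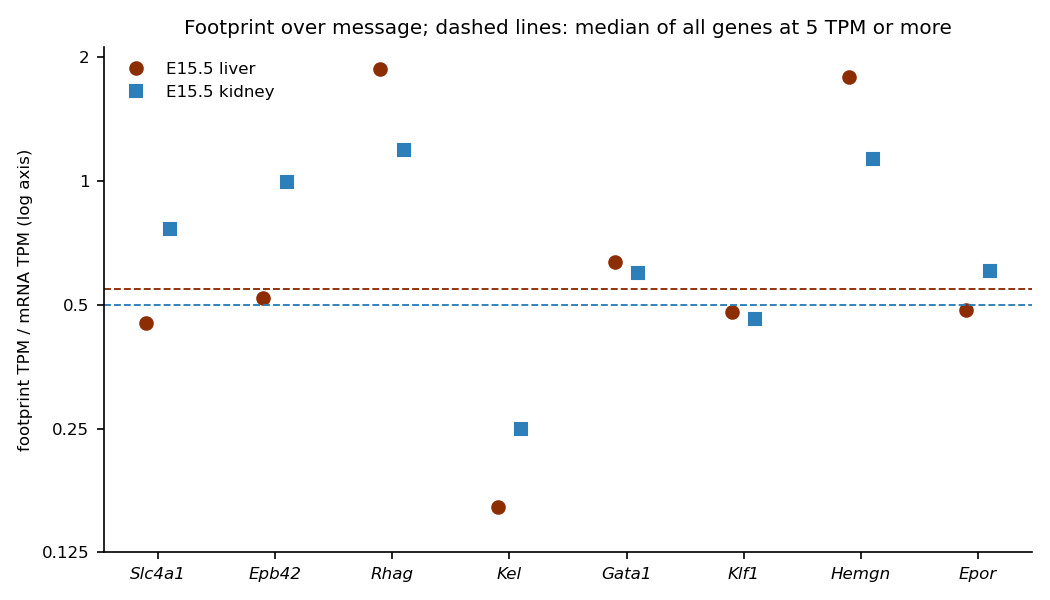
Ratio of mean footprint TPM to mean message TPM for each gene in E15.5 liver (brown circles) and E15.5 kidney (blue squares), on a log axis, with dashed lines at the medians of all genes with 5 TPM of message (0.547 and 0.499). Rhag and Hemgn lie above both lines and Kel below both, in each tissue.

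Translational efficiency, the footprint change beyond the message change, was tested in a limma model of both assays where message had a mean of 5 TPM in both groups. Between E15.5 liver and kidney all 8 genes could be tested and 0 were called, against 9.5% of genes called in either direction. At an adjusted p below 0.05 there were 2, Epb42 (-0.96, limma adjusted p = 0.0115) and Kel (-0.83, limma adjusted p = 0.0211), both short of a difference of 1. At an unadjusted p below 0.05 there were 4, the other two being Rhag (0.64) and Slc4a1 (-0.79). With listed genes rescaled to an equal sum, 3 were called, and without the first RNA-seq replicate of E15.5 kidney, 2.

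Slc4a1 was the only gene of the 8 that could be tested against heart and lung. Its efficiency in liver was lower than in heart (-1.44, SE 0.381, limma adjusted p = 0.00909), where 1.98% of genes were, and lower than in lung (-2.04, SE 0.381, limma adjusted p = 7.51e-05), where 1.05% were. The heart call was lost with a pseudocount of 0.25 TPM, where the difference was of the same size (-1.45) but its adjusted p missed the threshold, and without replicate 1 of the E15.5 heart Ribo-seq group (-0.78), the library with the high Slc4a1 and globin footprints. Hepatocyte markers were also higher by footprint than by message in lung, 0.995% against 0.0972% of liver.

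Between the stages the efficiency of Klf1 fell in kidney (-1.29, SE 0.297, limma adjusted p = 0.00483), 1 of 3 genes tested where it fell for 4.68% of all genes, and in liver (-1.23, SE 0.297, limma adjusted p = 0.00135), 1 of 1 where it fell for 19.9%. P42 footprint to message ratios of Klf1 were 0.0826 in kidney and 0.089 in liver, against 0.461 and 0.481 at E15.5. Neither call held with a pseudocount of 4 TPM (-0.33 and -0.17) or with listed genes rescaled to an equal sum (-0.84 and -0.45). Without RNA-seq replicate 2 of E15.5 kidney the kidney value was -0.95, and without replicate 1 of the P42 liver Ribo-seq group the liver value was -0.97.

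The genes most like each of the 8 were sought by Pearson's r of mean log2(TPM + 1) over the 12 RNA-seq groups, among 15677 genes. Each gene named here was itself highest in E15.5 liver. Epb42 was most like 6030468B19Rik (0.9979), Gfi1b, a repressor of the erythroid and megakaryocyte lines (0.9958), and Cldn13 (0.9955). Rhag was most like Cldn13 (0.9981), 6030468B19Rik (0.9923) and Ermap (0.9918), and Kel like Cldn13 (0.996), 6030468B19Rik (0.9943) and Gm5483 (0.9925). Hemgn was most like Cldn13 (0.9932), Ermap (0.987) and BC100530 (0.9859), and Gata1 like Mpo, the granule peroxidase of myeloid cells (0.9948), Gfi1b (0.9927) and Gm5483 (0.9921).

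The genes with a P42 level of their own had other neighbours and lower r. Slc4a1 was most like Mcoln2 (0.9511), Sgk3 (0.9488) and Pnliprp1 (0.9445), Klf1 like Chst13 (0.9587), 4933411K16Rik (0.9525) and Pnliprp1 (0.9506), and Epor like Icam4, a red cell adhesion protein (0.9728), Prss50 (0.9439) and Krt20 (0.9392). Among the 8 themselves r ran from 0.8708 (Klf1 and Epor) to 0.9982 (Rhag and Hemgn).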

How the data were processed

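Lysis of frozen tissue was in the presence of cycloheximide, ribosomal RNA was depleted, and kits for ribosome profiling and for poly(A) message were used, per the labels' protocols. The tools named in the submitters' processing notes are CASAVA 1.8.2, cutadapt 1.8.1, TopHat2 2.0.14 and featureCounts 1.6.2 with GRCm38.p6. The authors deposited TPM in 4 tables of 12 libraries, split by stage and assay. Which annotation release they used, and over which features each TPM total runs, is not given in the sources used here. The depth per library is unknown, so no counting error is given.

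Values were analysed as log2(TPM + 1), which understates the change of low genes. Genes with at least 1 TPM in 2 of the 24 libraries of an assay were tested, and all 8 genes passed. The limma package (version 3.58.1, R 4.3.3) fitted 1 mean per tissue and stage with a variance trend, 12 residual degrees of freedom per assay (24 over both) and Benjamini-Hochberg adjustment over all genes. Translational efficiency was the assay by group term where message had a mean of 5 TPM in both groups. Calls needed an adjusted p under 0.05 together with a log2 change of 1 or more in size. With 2 replicates a group, p-values measure only the spread between these samples. Scripts were tested on simulated data. Tables and figures were made with Python 3.11.15, pandas 2.3.3 and matplotlib 3.10.9.

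The members and lists were chosen with earlier results of these data known. The text names the 8 genes, from each pathway list the 3 largest and 2 smallest falls (or rises) in liver by message, and the 3 genes most like each member among those with a highest group mean of at least 5 TPM; a gene that this rule names is not reported here. Ahsp and Tf, of the marker lists, were not matched in the tables. Alternatives were pseudocounts of 0.25 and 4 TPM, 3 scalings, 3 filters, no variance trend, a replicate block, each library left out, a fit of the tissue alone and an RNA-seq floor of 1 TPM.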

Additional observations from a re-analysis of the deposited data

Results flagged for a closer look

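The stage change of the 8 genes differed between tissues by the interaction test in limma. In liver it lay below the mean of the other 5 tissues for every gene. By message the differences were -9.42 for Slc4a1, -7.51 for Epb42, -6.78 for Rhag, -7.99 for Kel, -6.59 for Gata1, -4.44 for Klf1, -7.74 for Hemgn and -6.06 for Epor, on the log2(TPM + 1) scale. By footprint they were -6.94, -5.76, -6.27, -5.47, -5.78, -4.88, -7.19 and -4.98 in the same order.

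In kidney the change lay below the mean of brain, retina, heart and lung for 7 of the 8 genes, Slc4a1 being the exception. By message the differences were -2.87 for Epb42, -4.03 for Rhag, -3.72 for Kel, -3.25 for Gata1, -1.28 for Klf1, -4.96 for Hemgn and -1.90 for Epor. By footprint they were -2.16, -2.95, -1.83, -1.98, -1.90, -3.79 and -1.18 in the same order. The Epor footprint difference was not called with a pseudocount of 4 TPM (-0.82), with median-of-ratios scaling (-0.62) or without replicate 1 of the P42 kidney Ribo-seq group (-0.99). The limited room to fall in the other tissues holds here too. The part of liver material in the E15.5 kidney values was not tested.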

How the results depend on the processing

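Of the 31 counts of genes called, 15 stayed within 1.5 times the value in the text under all alternatives, among them the 8 of 8 lower in liver, the 8 of 8 lower in kidney (7 under some alternatives) and the 8 of 8 higher in E15.5 liver. Of 189 values of single genes called in the main fit, 159 kept their call, 30 lost it under at least 1 alternative and 0 reversed. Values not called there were left out, so calls gained under an alternative do not enter these numbers. With a pseudocount of 0.25 TPM, the genes lower at P42 by message were 4 in brain, 1 in retina, 7 in heart and 2 in lung, and by footprint 2 in retina and 4 in lung, and 0 efficiencies differed between liver and heart. With a pseudocount of 4 TPM the numbers lower were 0 in brain, 1 in heart and 0 in lung by message and 1 in heart and 1 in lung by footprint. That setting also left 0 genes highest in P42 kidney by footprint, 4 with a larger fall in kidney by footprint, 5 of the erythropoietin receptor signalling list by footprint, 1 efficiency between liver and kidney, and 0 between the stages in kidney and in liver.

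Median-of-ratios scaling left 0 genes lower in brain and 0 in lung by message, and 5 (message) and 4 (footprint) of the erythropoietin receptor signalling list lower in liver. Giving the tabled genes an equal sum per library, with or without the 13 mitochondrial genes, gave 1 gene lower in retina and 4 in lung by footprint, 3 efficiencies between liver and kidney, and 0 between the stages in kidney and in liver. Requiring a mean of 1 TPM in the groups compared left 1 gene in heart in each assay, since fewer of the 8 were tested. A floor of 1 TPM of message gave 3 efficiencies between liver and heart and 4 between liver and lung, with more genes tested. The cause of the other shifts was not tested.

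Of the genes called between the stages in liver by message, 78.2% were lower as deposited and 45.7% with median-of-ratios scaling, where the median gene moved from -0.57 to -0.03. For kidney the shares were 77.4% and 45.9%, for heart 96.4% and 40.7%, for lung 84% and 39.2%, for brain 75.3% and 40.2% and for retina 56.1% and 43.2%. By footprint in liver they were 80.9% and 41.7%, in kidney 76.3% and 40.1%, in heart 81.3% and 31.6% and in lung 54.7% and 38%, where an equal sum gave 74.4%.

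Leaving out a library at a time gave 0 to 2 genes lower in retina by footprint (2 without replicate 2 of P42 retina), 0 to 1 highest in P42 kidney by footprint (0 without replicate 1 of P42 lung), 0 to 1 efficiencies between liver and heart, 0 to 2 between liver and kidney, and 0 to 1 between the stages in kidney and in liver. Replicate numbers are shared between groups, but they were not taken as pairing the samples, since the labels name no shared source and not all pairs of groups correlated above 0.1: the deviations of same-numbered replicates correlated across genes with r from -0.415 to 0.306 over 66 pairs of RNA-seq groups, from -0.518 to 0.556 over 66 pairs of Ribo-seq groups, and from -0.19 to 0.325 between the 2 assays of a tissue and stage. A replicate block moved no count by more than 1.5 times, with 8 of 8 lower in liver by message. Depth is unknown, so values below 1 TPM carry no counting error and were compared only through the replicates.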
